A study of Mus musculus with 9 samples.

Results

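Transcripts that mark platelets and the megakaryocytes that shed them were followed in fracture callus with 9 genes: Pf4, Ppbp, Gp1ba, Gp1bb, Gp9, Gp5, Gp6, Clec1b and Treml1. The members were set by symbol, and all 9 were found among the 22054 genes of the deposited table. The callus came from male C57BL/6J mice, 7 weeks old in the sample labels, whose left femur had been broken at the midshaft and fixed with a needle in the marrow cavity. From the day after surgery the mice were injected intraperitoneally every day for a week with 200 μl of H-151 (750 nmol), SR-717 (30 mg/kg) or PBS, and callus was taken on day 7. H-151 is an inhibitor of STING, the adaptor of the cytosolic DNA sensor cGAS, and SR-717 is an activator of it. Each group was represented by 3 bulk libraries. All mice, controls included, carried the fracture, the implanted needle and the injections, and the protocols do not say whether the needle track or the marrow was cleared from the callus. The labels call the libraries replicate biosamples without saying that each is a separate mouse, so p-values measure the spread between these libraries, part of which may be technical.

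Megakaryocytes are the large polyploid cells of the bone marrow that release platelets into the blood. Platelets have no nucleus, keep part of the megakaryocyte's RNA, and form the first clot of a fracture hematoma, where they stick to von Willebrand factor and collagen and empty their granules. Pf4 and Ppbp encode CXC chemokines stored in alpha granules, platelet factor 4 (CXCL4) and pro-platelet basic protein (CXCL7). Gp1ba, Gp1bb, Gp9 and Gp5 encode the 4 chains of the GPIb-IX-V complex, the receptor for von Willebrand factor. Gp6 encodes the collagen receptor GPVI, Clec1b the podoplanin receptor CLEC-2, and Treml1 the alpha-granule membrane receptor TLT-1.

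Positions are given on GRCm38 from the GENCODE annotation. Ppbp (chr5:90768518-90770063, plus strand) and Pf4 (chr5:90772435-90773383, plus strand) are neighbours separated by 2371 bases. Gp1ba lies at chr11:70639122-70642036 (plus strand), Gp9 at chr6:87778072-87779768 (plus strand), Gp5 at chr16:30307685-30310779 (minus strand) and Gp1bb at chr16:18620317-18622403 (minus strand). Gp6 lies at chr7:4363965-4397744 (minus strand), Clec1b at chr6:129397297-129409335 (plus strand) and Treml1 at chr17:48359916-48367176 (plus strand). Gp1bb overlaps the end of its neighbour Septin5 on the same strand over 1902 bases, and Septin5 held 74.3 to 111 CPM (counts scaled to library size) in every library against 1.39 to 5.77 CPM for Gp1bb. The expected counts of Gp1bb were not whole numbers in 9 of 9 libraries, while those of the other 8 genes were whole in all of them. Gm49601 overlaps Gp1bb on the same strand over 1938 bases and held at most 0.343 CPM. How reads were divided among these genes is therefore uncertain, and the level of Gp1bb is given with that limit. Clec1b also overlaps a neighbour, Clec9a, on the same strand over 474 bases. Clec9a held 0.641 to 2.32 CPM.

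The bases upstream of the transcription start were read for all 9 genes from RefSeq on GRCm38.p6, 250 bases per gene. Megakaryocyte genes are classically bound by GATA-1 and by ETS-family factors such as FLI1, so the windows were searched on both strands for 2 motifs of which neither contains the other. The GATA motif was spelled AGATAA in its classical form, with TGATAA as its first variant, AGATAG as its second and TGATAG as its last. The ETS motif was spelled AGGAAG or, with another first base, CGGAAG. Matches to the GATA motif were found in 5 of 9 windows against 26.5% of 32851 promoter windows of the same length, matches to the ETS motif in 5 of 9 against 39.2%, and both in 3 of 9 against 9.21%. Gp1ba and Gp5 each held 3 GATA matches and 1 ETS match, and 1.35% of all windows held 3 or more GATA matches. Pf4 held 1 ETS match, and Ppbp held neither motif but had TATAAA at 2 positions. That motif was found in 2 of 9 windows, those of Ppbp and Clec1b, against 12.4% of all. A match of letters is a description and not a bound site. The windows of the neighbouring chemokine genes, whose levels are compared later, and of the 2 receptor chains with the most GATA matches are printed 5′ to 3′ on the strand of the gene, with GATA and ETS matches in capitals. They are chr5:90772185-90772434 for Pf4, chr5:90768268-90768517 for Ppbp, chr11:70638872-70639121 for Gp1ba and chr16:30310782-30311031 (minus strand) for Gp5.
Pf4: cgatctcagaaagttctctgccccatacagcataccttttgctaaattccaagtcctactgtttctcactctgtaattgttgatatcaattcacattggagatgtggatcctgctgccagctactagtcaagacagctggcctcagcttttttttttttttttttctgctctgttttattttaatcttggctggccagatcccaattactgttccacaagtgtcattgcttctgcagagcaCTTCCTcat
Ppbp: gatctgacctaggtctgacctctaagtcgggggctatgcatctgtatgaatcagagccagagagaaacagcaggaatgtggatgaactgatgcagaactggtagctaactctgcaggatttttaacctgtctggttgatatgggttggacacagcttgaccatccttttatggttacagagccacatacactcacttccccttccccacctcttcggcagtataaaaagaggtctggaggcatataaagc
Gp1ba: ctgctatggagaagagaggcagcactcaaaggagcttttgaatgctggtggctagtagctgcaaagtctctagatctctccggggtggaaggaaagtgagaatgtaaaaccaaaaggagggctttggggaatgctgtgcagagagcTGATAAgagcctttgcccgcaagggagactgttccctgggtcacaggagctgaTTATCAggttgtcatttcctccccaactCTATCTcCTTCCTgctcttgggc
Gp5: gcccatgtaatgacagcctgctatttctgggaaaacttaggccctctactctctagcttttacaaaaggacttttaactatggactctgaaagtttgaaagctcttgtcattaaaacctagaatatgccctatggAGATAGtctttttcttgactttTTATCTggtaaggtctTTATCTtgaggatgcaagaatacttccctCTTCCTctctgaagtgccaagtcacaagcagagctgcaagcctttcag

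In Gp1ba the ETS match lay 16 to 11 bases before the start and 1 GATA match lay 23 to 18 bases before it. In Gp5 the 3 GATA matches lay between 115 and 72 bases before the start and the ETS match 48 to 43 bases before it. Gp9 and Pf4 also held their single ETS match close to the start, 16 to 11 and 9 to 4 bases before it. Treml1 held no GATA, ETS or TATA match in its window.

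Library depth was 16987398 to 23272480 expected counts, and the depth ranges of the 3 groups overlapped. Levels are given as CPM, counts relative to library size after TMM scaling for RNA composition, and, where genes are compared with each other, as TPM, which is scaled for gene length. In a principal component analysis of all genes SR-717 replicate 1 stood apart from the rest on the first component (46.6% of the variance), at 101, and PBS replicate 1 was next at 38.8, with the others between -28.8 and -4.03. On the second component (22.9%) PBS replicate 3 stood apart at -67.4, with the others between -22.0 and 29.4. Callus was represented in every library by its cartilage and bone markers, whose summed level ran from 22121 to 52746 CPM, though their mean log2 CPM was 6.75 in SR-717 replicate 1 and 8.62 in PBS replicate 1 against 9.54 to 10.2 in the other 7.

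Per length, the alpha-granule chemokines were the most abundant of the 9 transcripts. The median TPM over 9 libraries was 119 for Pf4 and 41.1 for Ppbp, and Pf4 stood above Ppbp in 8 of 9 libraries. Gp9 and Gp1bb followed at median TPM of 5.45 and 5.38, and which of the pair was higher depended on the library, with Gp9 ahead in 6 of 9. Ppbp was above Gp9 in 9 of 9 libraries. Treml1 (3.85 TPM), Clec1b (2.54 TPM), Gp5 (1.81 TPM) and Gp1ba (1.65 TPM) came next, and Clec1b led Gp5 in 5 of 9 libraries and Gp5 led Gp1ba in 6 of 9. Gp6 was lowest, at a median of 0.702 TPM, and below Gp1ba in 9 of 9 libraries.

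Pf4 had nearly equal means in the 3 groups. In the H-151 libraries Pf4 measured 39.4, 39.8 and 24.3 CPM, in the PBS libraries 48.7, 35.3 and 16.7 CPM, and in the SR-717 libraries 46.4, 34.8 and 22.5 CPM, for replicates 1, 2 and 3. The range of each group lay within or across those of the others, and the highest and lowest of the 9 values were both PBS libraries. The group means were 34.5 ± 8.86 CPM (SD, n = 3) with H-151, 33.6 ± 16.1 CPM with PBS and 34.6 ± 12.0 CPM with SR-717.

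Ppbp, the gene next to Pf4, spread far more. It measured 50.2, 54.0 and 26.8 CPM with H-151, 7.08, 55.6 and 3.03 CPM with PBS, and 12.8, 101.0 and 17.3 CPM with SR-717. PBS replicate 2 and SR-717 replicate 2 stood far above the other libraries of their groups, and the H-151 libraries stayed within 2.02-fold of each other, against 18.3-fold among PBS and 7.91-fold among SR-717 libraries. Since PBS spanned 3.03 to 55.6 CPM and SR-717 12.8 to 101.0 CPM, both covered the whole H-151 range. The TPM ratio of Ppbp to Pf4 was 0.692, 0.736 and 0.599 in the H-151 libraries, 0.0789, 0.854 and 0.0984 in the PBS libraries, and 0.149, 1.58 and 0.418 in the SR-717 libraries. SR-717 replicate 2 was the 1 library in which Ppbp exceeded Pf4.

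The chains of the von Willebrand factor receptor followed the libraries in the same manner as Ppbp. Gp1ba, the ligand-binding chain, measured 6.52, 5.47 and 2.67 CPM with H-151, 1.03, 6.68 and 0.562 CPM with PBS, and 1.19, 6.85 and 1.93 CPM with SR-717. Gp9, encoding the small GPIX chain, measured 4.81, 6.16 and 2.89 CPM with H-151, 0.228, 7.65 and 0.337 CPM with PBS, and 0.930, 6.62 and 2.22 CPM with SR-717. In both genes the second library of PBS and of SR-717 was high and its 2 companions were low, and all groups overlapped. The lowest Gp9 values rested on 4 and 6 counts, in PBS replicates 1 and 3.

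Gp5, the chain that thrombin cleaves, measured 4.61, 5.13 and 2.39 CPM with H-151, 0.857, 6.76 and 0.787 CPM with PBS, and 1.03, 5.30 and 1.99 CPM with SR-717. Gp1bb, the disulfide-linked partner of Gp1ba, measured 3.83, 4.54 and 4.00 CPM with H-151, 2.80, 5.45 and 2.42 CPM with PBS, and 1.39, 5.77 and 1.87 CPM with SR-717. Gp1bb moved least of the 4 chains, 4.14-fold between its lowest and highest library against 8.60-fold for Gp5, 12.2-fold for Gp1ba and 33.5-fold for Gp9. The lowest values of Gp9 and Gp1ba behind these ranges rested on 4 and 10 counts, so their size is uncertain. The division of reads behind the narrower range of Gp1bb is uncertain.

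The signaling receptors showed the same high libraries in PBS and SR-717. Gp6, the collagen receptor, measured 1.57, 2.47 and 0.945 CPM with H-151, 0.400, 2.62 and 0.0562 CPM with PBS, and 0.671, 6.10 and 0.292 CPM with SR-717. SR-717 replicate 2 exceeded every other library for Gp6, whereas PBS replicate 3 held 1 count of it. Clec1b, the receptor that binds podoplanin, measured 2.65, 4.83 and 1.67 CPM with H-151, 0.343, 2.96 and 0.169 CPM with PBS, and 0.930, 3.66 and 0.759 CPM with SR-717. Treml1, brought to the platelet surface on activation, measured 3.92, 4.68 and 2.83 CPM with H-151, 0.400, 5.24 and 0.112 CPM with PBS, and 1.08, 4.83 and 1.34 CPM with SR-717. For these 3 genes too PBS replicate 2 and SR-717 replicate 2 were the high libraries of their groups, and the H-151 range lay inside the range of PBS except for Clec1b, where H-151 replicate 2 was the highest of all 9. In PBS replicate 3 Clec1b and Treml1 rested on 3 and 2 counts, so no ratio between libraries is given on these values.

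**Figure D1:**
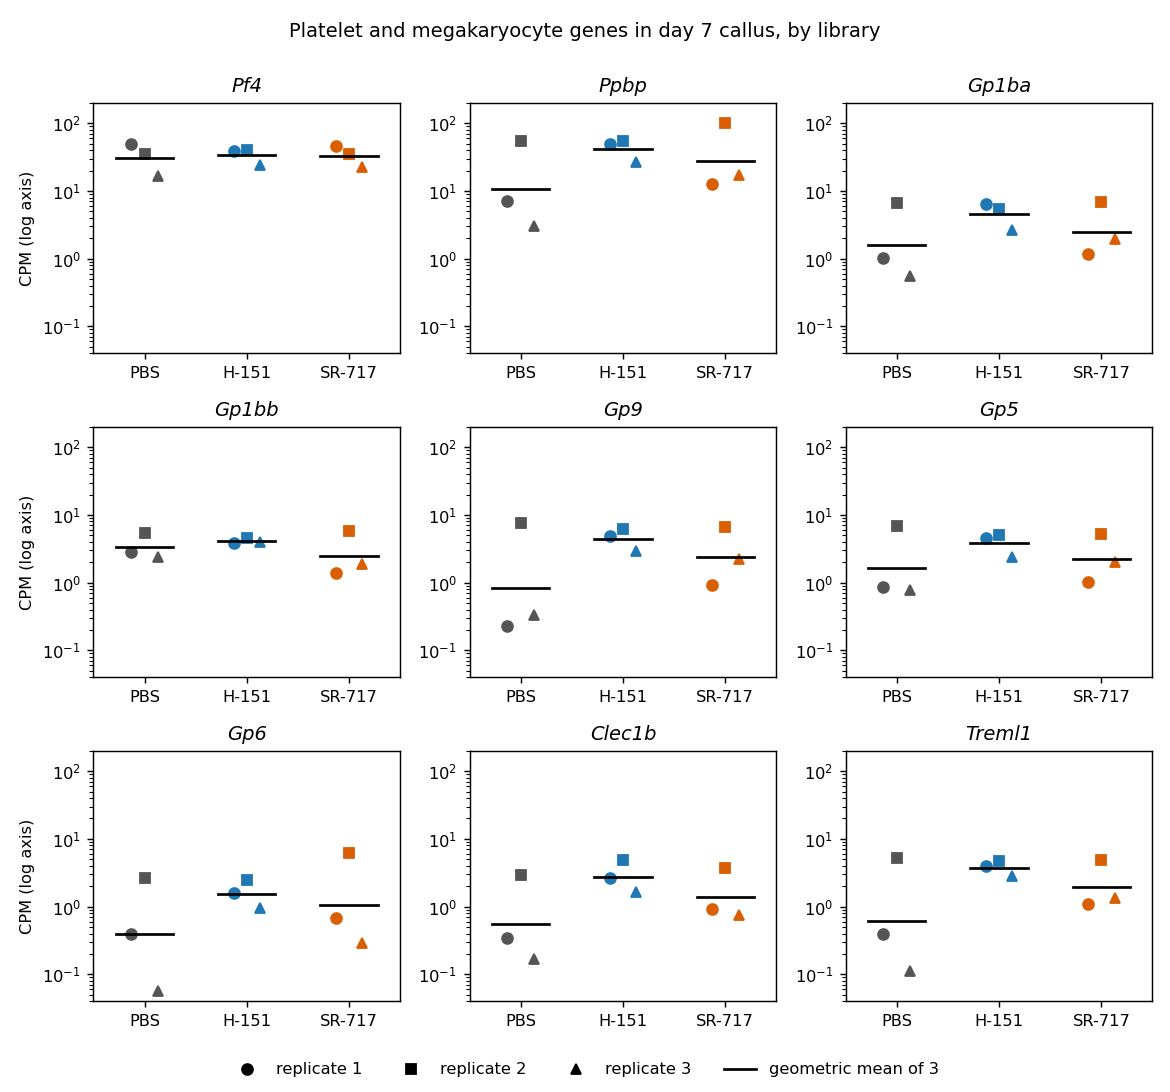
Level of each of the 9 genes in CPM (log axis, the same in every panel) in the 3 PBS, 3 H-151 and 3 SR-717 libraries, with symbols for the replicate number and a bar at the geometric mean of the 3. For every gene but Pf4 the PBS and SR-717 groups split into a high replicate 2 and 2 lower libraries, while the H-151 libraries lie closer together, and no gene separates any pair of groups.

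Counted over the genes, replicate 2 was the highest library of its group for 8 of 9 genes in each group. The exception was Pf4 with PBS and with SR-717, where replicate 1 was highest, and Gp1ba with H-151. PBS replicate 3 was the lowest of all 9 libraries for 7 genes. The mean log2 CPM of the 9 genes was 2.71, 2.97 and 2.02 in the H-151 libraries, 0.60, 3.04 and -0.18 in the PBS libraries, and 1.15, 3.24 and 1.32 in the SR-717 libraries. Hence the H-151 libraries were all at the upper end of a range that PBS covered in full. Among 13509 genes with a mean of at least 1 CPM, the SD of log2 CPM over the 9 libraries stood at the 96.7th percentile or above for 7 of the 9 genes, up to the 99.1st for Gp9, and at the 86.7th for Gp1bb and the 77.5th for Pf4. Differences between group means made up 1.44% of the variance of Pf4 and 36.3% of that of Clec1b, with the other 7 genes between. The median of this share over the 13509 genes was 14.4%. In bulk callus, fewer platelets or megakaryocytes and less of their RNA per cell cannot be told apart.

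SR-717 was compared with PBS to ask what STING activation did to these transcripts in the early callus. Of the 9 genes 7 had a higher and 2 (Gp1bb and Gp5) a lower fitted level with SR-717, and 0 of 9 passed the study's thresholds of p under 0.05 and 1.5-fold, with p taken as unadjusted, in edgeR's quasi-likelihood test. Of all 14070 genes tested, 0.519% passed. The log2 fold change was largest for Gp6 at 1.17 (SE 1.43) and Ppbp at 0.99 (SE 1.24), and the 95% interval of Gp6 ran from -2.27 to 4.62. For Pf4 it was 0.04 (SE 0.44) with an interval from -1.01 to 1.09, the narrowest of the 9. The median over the 9 genes was 0.26, beside 0.01 over all genes tested. The Benjamini-Hochberg adjusted p in edgeR was 1.00 for each of the 9 genes, 0 of them had an unadjusted p under 0.05, and DESeq2 called 0, beside 0.981% of all genes, giving no p for Ppbp and Treml1. No gene had groups that did not overlap, against 3.75% of all genes tested.

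With the replicate number as a block, Ppbp (log2 fold change 1.36, SE 0.39) and Gp6 (1.20, SE 0.40) passed the study's thresholds, beside 3.15% of all genes, and the median of the 9 genes was 1.05. Their adjusted p in that edgeR fit was 0.999. The count also rested on 1 library. Without PBS replicate 2, Ppbp, Gp9, Clec1b and Treml1 passed with higher levels under SR-717, beside 1.06% of all genes in that direction, and the median was 2.78, with Gp6, Gp9, Clec1b and Treml1 fitted against 1 to 7 PBS counts a library. Without SR-717 replicate 2, 0 of 9 passed, beside 0.71% of all genes, and the median was -0.82, with 1 of 9 genes higher under SR-717. Without SR-717 replicate 1 and PBS replicate 1, the pair that stood apart on the first principal component, 0 of 9 passed, beside 0.833% of all genes. The median was then 0.22.

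H-151 was compared with PBS to ask the same of STING inhibition. This comparison shares its PBS libraries with the one before, so the values of the 2 are not independent. All 9 genes had a higher fitted level with H-151, and 0 of 9 passed the thresholds in edgeR, beside 0.426% of 14085 genes tested. The log2 fold change was 1.35 (SE 0.96) for Clec1b, 0.99 (SE 0.96) for Ppbp and 0.96 (SE 1.08) for Treml1, with 95% intervals from -0.92 to 3.63, from -1.30 to 3.28 and from -1.62 to 3.53. Along the von Willebrand factor receptor it was 0.81 (SE 0.87) for Gp1ba, 0.73 (SE 1.15) for Gp9, 0.51 (SE 0.84) for Gp5 and 0.21 (SE 0.35) for Gp1bb. Pf4 stood at 0.04 (SE 0.39), with an interval from -0.89 to 0.97. The median over the 9 genes was 0.73, beside -0.02 over all genes. The adjusted p in edgeR was 1.00 for each gene, 0 of 9 had an unadjusted p under 0.05, and DESeq2 called 0, beside 0.589% of all genes, giving no p for Ppbp. No gene had groups that did not overlap, against 3.87% of all genes.

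In the blocked fit Ppbp (log2 fold change 1.91, SE 0.67) and Clec1b (1.94, SE 0.57) passed the thresholds, beside 1.86% of all genes, and the median was 1.39. Their adjusted p in that edgeR fit was 1.00. PBS replicate 2 decided the count here as well. Without it, 8 of 9 genes passed with higher levels under H-151, all but Pf4, beside 3.39% of all genes in that direction. The median was then 2.85, and the log2 fold change was 3.12 (SE 0.51) for Ppbp and 4.01 (SE 0.52) for Gp9, with an adjusted p of 0.590 for both in edgeR. The PBS side of these fits was small: Ppbp held 124 and 54 counts in PBS replicates 1 and 3. Gp9 held 4 and 6 there, and Gp6, Clec1b and Treml1 between 1 and 7. The fitted size for Gp9, Gp6, Clec1b and Treml1, and the median, rest on these few counts and are no bound. Without PBS replicate 3 the median was 0.21. With any library other than PBS replicate 2 left out, 0 of 9 passed, beside 0.302% to 1.07% of all genes.

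SR-717 was compared with H-151 as the direct contrast of activation and inhibition. The fitted level of 8 genes was lower with SR-717 and that of Gp6 was higher, at a log2 fold change of 0.51 (SE 1.06). The largest difference downward was -0.77 (SE 0.71) for Clec1b, with a 95% interval from -2.49 to 0.95, followed by -0.66 (SE 0.61) for Treml1 and -0.56 (SE 0.70) for Gp1ba. Pf4 and Ppbp were both at -0.01, with SE of 0.32 and 0.81. None of the 9 genes passed, 0 of 9 at the thresholds or at an unadjusted p under 0.05 in edgeR, beside 0.756% of 14151 genes at the thresholds, and 0 in DESeq2, beside 1.48%. The adjusted p in edgeR ran from 0.996 to 1.00. The median was -0.51, beside 0.02 over all genes, and no gene had groups that did not overlap, against 5.18% of all genes.

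Here SR-717 replicate 2 decided the count. Without it 8 of 9 genes, all but Pf4, passed with lower levels under SR-717 than under H-151, beside 1.19% of all genes in that direction. The median was then -1.57, and the adjusted p in edgeR was 0.983 for each of the 8. Without SR-717 replicate 1 the median was -0.15. Apart from blocked fits, genes of the 9 passed the thresholds in no fit that kept both PBS replicate 2 and SR-717 replicate 2, and Pf4 passed in none of the fits run.

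**Figure D2:**
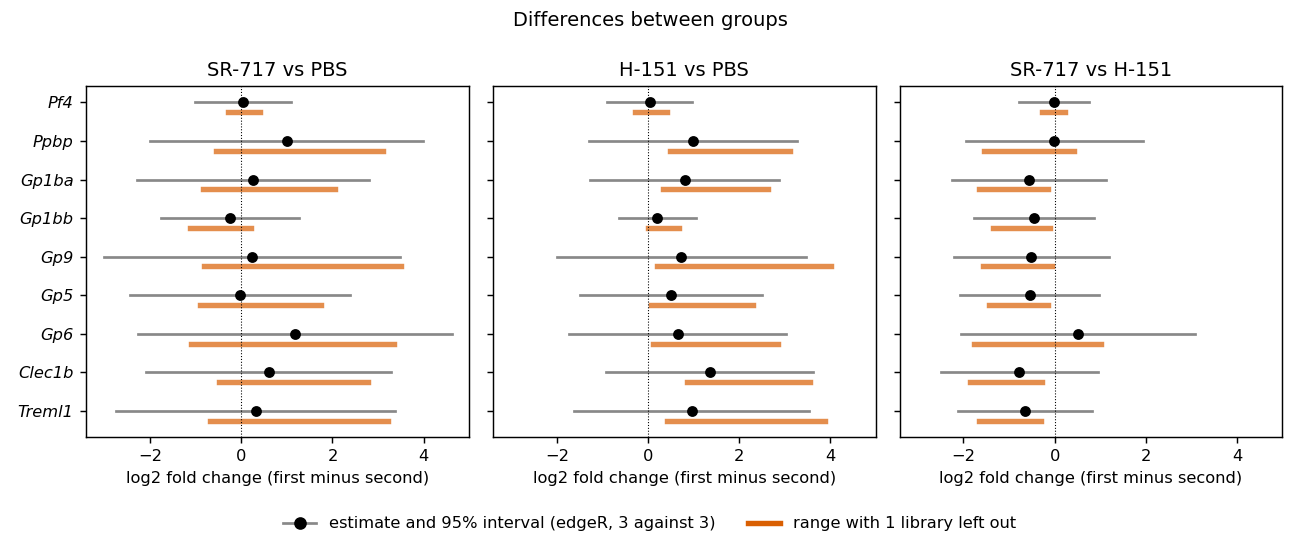
Fitted log2 fold change of each gene (first group minus second, edgeR, 3 libraries against 3) with its 95% interval in black and grey, and in orange the range of the estimate when each of the 6 libraries is left out in turn. Every interval spans 0, and the orange ranges reach up to 4.01 for Gp9 in H-151 against PBS.

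**Figure D3:**
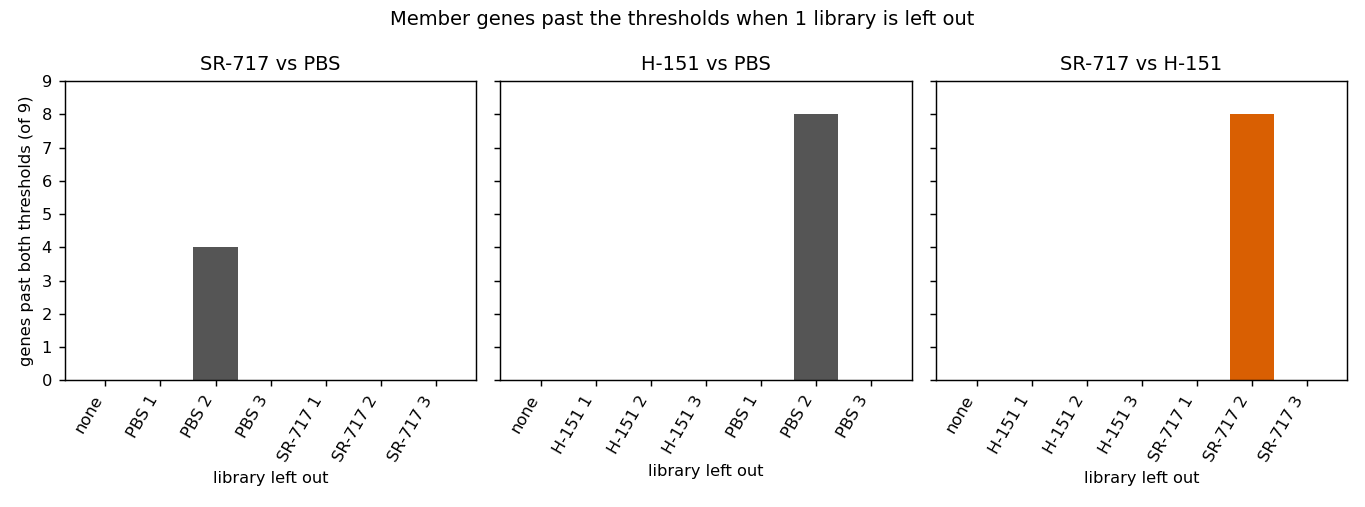
Number of the 9 genes past an unadjusted p under 0.05 and 1.5-fold in edgeR (vertical axis, from 0 to 9) for the fit with all 6 libraries and with each library left out. Only the fits without PBS replicate 2 (4 and 8 genes) and without SR-717 replicate 2 (8 genes, against H-151) hold any.

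The rest of the platelet and megakaryocyte program was represented by 40 further genes in 6 roles, all found in the table. None passed the thresholds in edgeR, 0 of 40 for SR-717 against PBS, 0 of 39 for H-151 against PBS and 0 of 40 for SR-717 against H-151, with median log2 fold changes of 0.34, 0.28 and 0.04, and 0 had an unadjusted p under 0.05. The fitted difference was positive for 29 and negative for 11 genes in the first comparison, 27 and 12 in the second and 22 and 18 in the third, and of all genes 0.519%, 0.426% and 0.756% passed. For SR-717 against PBS, DESeq2 and the fit of all 9 libraries each called P2ry12, the ADP receptor that clopidogrel targets, beside 0.981% and 1.23% of all genes. DESeq2 called 0 of the list for H-151 against PBS, beside 0.589% of all genes, and again P2ry12 for SR-717 against H-151, beside 1.48%. It gave no p for Srgn in SR-717 against PBS or for Tubb1 in H-151 against PBS, so neither could be called there. P2ry12 measured 20.1 CPM in SR-717 replicate 1 and 0.393 to 1.95 CPM in the other 8 libraries, so its value was that of 1 library. In the blocked fits Bin2, Nfe2 and P2ry12 passed for SR-717 against PBS, and F2rl2, Gata1, Itga2b, Mpig6b, Nfe2 and Tal1 for H-151 against PBS, all higher with the drug, beside 3.15% and 1.86% of all genes in either direction. Without PBS replicate 2, 6 of 40 passed for SR-717 and 13 of 39 for H-151, each with higher levels than PBS, beside 1.06% and 3.39% of all genes. Without SR-717 replicate 2, 7 passed with lower and 1 (Srgn) with higher levels in SR-717 than in H-151, beside 1.19% and 1.5% of all genes.

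Itga2b, the alpha chain of the fibrinogen receptor and an early mark of the lineage, measured 17.9, 22.2 and 10.6 CPM with H-151, 6.51, 20.0 and 2.14 CPM with PBS, and 6.66, 18.5 and 7.53 CPM with SR-717. Its partner Itgb3, which osteoclasts also express, held 173 to 307 CPM in all libraries. It too was highest in PBS replicate 2 and SR-717 replicate 2, but over a far smaller range, and its r with the mean of the 9 genes was 0.18. Tubb1, the beta-tubulin of the platelet marginal band, measured 6.82, 7.20 and 2.95 CPM with H-151, 0.971, 8.62 and 0.281 CPM with PBS, and 1.39, 7.74 and 1.34 CPM with SR-717. In both Itga2b and Tubb1 replicate 2 was the highest library of each group and PBS replicate 3 the lowest of all 9.

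Of the 8 transcription factors in the list, 4 had an r over 0.8 with the mean of the 9 genes over the libraries and 3 had a negative r, and the SD of their log2 CPM ran from the 23.8th to the 99.5th percentile of all genes. Gata1, a transcription factor of the megakaryocyte and erythroid lineages, measured 8.68, 15.5 and 5.06 CPM with H-151, 0.457, 15.0 and 0.899 CPM with PBS, and 0.620, 14.6 and 5.31 CPM with SR-717. Nfe2, needed for platelet release and also expressed by erythroid and neutrophil cells, measured 36.3, 44.7 and 13.5 CPM with H-151, 15.8, 36.2 and 3.03 CPM with PBS, and 63.9, 34.7 and 14.3 CPM with SR-717. Gata1 was low in PBS replicates 1 and 3 and SR-717 replicate 1, whereas Nfe2 was highest in SR-717 replicate 1.

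Across the 9 libraries, which share tissue, preparation and scaling, the genes varied together with Pf4 as the exception. Pearson's r between a gene and the mean log2 CPM of the other 8 was 0.99 for Ppbp, 0.98 for Gp1ba and Clec1b, 0.97 for Treml1, 0.96 for Gp5, 0.94 for Gp9 and Gp6, 0.74 for Gp1bb and 0.33 for Pf4, with Spearman's rho of 0.85 or more for all but Pf4 (0.03). Without PBS replicates 3 and 1, the libraries farthest from the median, r was 0.97 for Ppbp, 0.94 for Gp1bb and 0.21 for Pf4. That omission kept SR-717 replicate 1. In SR-717 replicate 1 and PBS replicate 1 Pf4 was at its highest, 46.4 and 48.7 CPM. The mean log2 CPM of the 9 genes was low there, at 1.15 and 0.60. The r of Pf4 with the other 8 without these 2 libraries was not computed, so its departure may rest on them. After the group means were removed r was 0.995 for Ppbp and 0.32 for Pf4, so the shared variation was also present within the groups. The 21 pairs among the 7 genes other than Pf4 and Gp1bb had r of 0.84 to 0.98, and the 8 pairs with Pf4 had 0.11 to 0.51.

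The genes outside the 9 whose log2 CPM followed the mean of the 9 most closely, of 13500 ranked, were Tubb1 (r = 0.99), Trim58 (0.98), Tspan33 (0.98), Mpig6b (0.97) and Ctse (0.97). Tubb1 ranged from 0.281 to 8.62 CPM, Trim58, a ubiquitin ligase of erythroid cells, from 0 to 2.61 CPM, and Tspan33, a tetraspanin, from 1.52 to 32.9 CPM. Mpig6b, the inhibitory platelet receptor G6b-B, ranged from 0.225 to 3.57 CPM, and Ctse, encoding cathepsin E, from 1.24 to 82.2 CPM. After the group means were removed, 2 of the 5 remained among the first 5. Of the 39 ranked genes of the wider list 11 had an r over 0.8 (28.2%), against 238 of 13500 genes (1.76%). Among those 11 were Tubb1, Mpig6b, Itga2b, Ly6g6f, F2rl2, Tal1, Gfi1b, Alox12, Gata1 and Zfpm1, and 10 of the 39 had a negative r, among them Cd9 and Itga2.

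Most markers of other blood-forming cells moved with the 9 genes. The summed level of 9 erythroid genes was 3875 to 14258 CPM in the H-151, 435 to 9796 CPM in the PBS and 814 to 8162 CPM in the SR-717 libraries, and the mean log2 CPM of the list had r = 0.91 and rho = 0.88 with the mean of the 9 platelet genes (0.90 without the 2 farthest libraries). For 8 B lineage genes the summed level was 49.9 to 94.7, 38.3 to 75.3 and 39.2 to 93.4 CPM, and the mean log2 CPM had r = 0.90 and rho = 0.90 (0.93 without the 2). The sums varied only 2.47-fold over the libraries, whereas the mean log2 CPM ran from 0.27 to 3.31. Single genes had an r over 0.8 for 7 of the 8, and Ebf1 went the other way at -0.48. For 8 mast cell and basophil genes the summed level was 28.5 to 41.5, 9.95 to 36.9 and 18.1 to 32.5 CPM, with r = 0.94 and rho = 0.93 (0.89 without the 2), and Fcer1a was at 0 in at least 1 library. Only 3 of the 6 genes of this list that were ranked had an r over 0.8 singly. None of the erythroid, B lineage or mast cell genes passed the thresholds in any comparison. Erythroid markers were at their lowest in PBS replicate 1, SR-717 replicate 1 and PBS replicate 3 and at their highest of each group in replicate 2. The part that the amount of marrow or blood in each callus had in these levels was not tested.

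**Figure D4:**
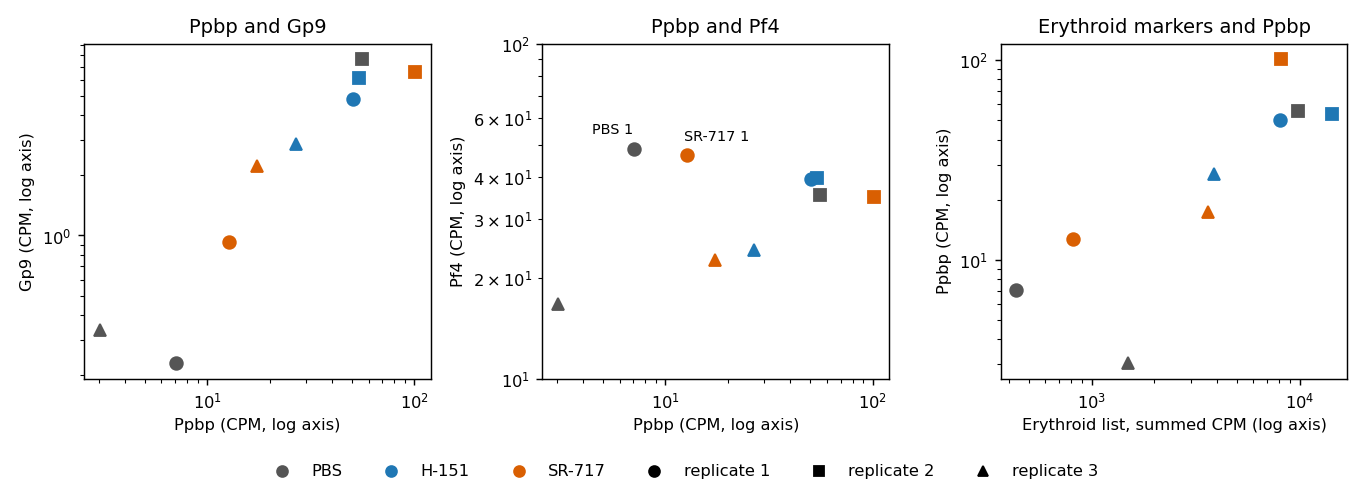
Levels in the 9 libraries, in CPM on log axes: Gp9 against Ppbp, Pf4 against Ppbp, and Ppbp against the summed erythroid markers, with color for the group and symbol for the replicate number. Gp9 follows Ppbp over its whole range, Pf4 stays between 16.7 and 48.7 CPM with PBS replicate 1 and SR-717 replicate 1 above the rest, and Ppbp is high in the libraries with 8075 CPM or more of erythroid markers.

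Neutrophil precursor markers followed the 9 genes less closely. Their summed level was 753 to 2909 CPM with H-151, 298 to 1949 CPM with PBS and 1376 to 6342 CPM with SR-717, and r was 0.51 (rho 0.42), or -0.05 without the 2 farthest libraries. Skeletal muscle markers had r = 0.72 (rho 0.65), or 0.32 without the 2. The r was 0.35 (rho 0.30) for cartilage and bone, 0.08 (rho 0.03) for macrophage, -0.34 (rho -0.27) for endothelial and -0.24 (rho -0.15) for keratinocyte markers, of which Krt5, Krt14, Krt1, Krt15, Dsg3 and Lor were at 0 in at least 1 library. Without the 2 farthest libraries r was 0.72 for cartilage and bone, -0.52 for macrophage, -0.24 for endothelial and -0.87 for keratinocyte markers.

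Over all 9 libraries Pf4 followed another set of markers. Its log2 CPM had r = 0.87 (rho 0.72) with the neutrophil precursor list and 0.71 (rho 0.67) with the macrophage list, or 0.69 and 0.49 without the 2 libraries farthest on each. With the erythroid list r was 0.03 (rho -0.12), and with the B lineage list 0.00 (rho -0.13). When PBS replicate 1 and SR-717 replicate 1 were left out, r was 0.97 with the erythroid list and 0.98 with the B lineage list over the remaining 7 libraries. In these 2 libraries Pf4 was at its highest, 48.7 and 46.4 CPM, while Gp9 held 0.228 and 0.930 CPM. The macrophage markers summed to 1482 and 2174 CPM there, the 2 highest of the 9 libraries. By the mean log2 CPM used for r, SR-717 replicate 1 was still highest (6.77), but PBS replicate 1 (6.19) stood just below H-151 replicate 1 (6.20). The neutrophil precursor markers summed to 1654 CPM in PBS replicate 1, below the 1949 CPM of PBS replicate 2, and to 6342 CPM in SR-717 replicate 1. Pf4 is also transcribed by some macrophages and monocytes, and whether a second cell type supplied it here was not tested.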

How the data were processed

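Callus RNA of day 7 was sequenced as poly(A)-selected, strand-specific paired-end libraries, 3 for each of H-151, PBS and SR-717, and groups and replicate numbers were taken from the sample labels. The authors deposited for each gene an expected count, which can hold fractions of reads, together with TPM, their own scaling for gene length and depth. The submitters' processing notes name mm10, and the aligner, counter and annotation are not given in the sources used here. Fractions occurred in 8.91% of the expected counts. Values were rounded for the count test, a step that the planned design for plain counts had not needed.

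The 9 genes, the wider list and the marker lists were chosen with earlier results of these data known. Each pair of groups was tested in edgeR 4.0.16 (R 4.3.3) on the whole table: filterByExpr (minimum count 10, minimum total 15), TMM, glmQLFit and glmQLFTest without covariates. The study's thresholds (p under 0.05, here unadjusted, and 1.5-fold) and a Benjamini-Hochberg adjusted p under 0.05 were applied. SE were derived from the F statistic. The fit was tested on simulated data. Log2 CPM used a prior count of 2, and log2 TPM a pseudocount of 0.1.

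Alternatives were DESeq2 size factors, DESeq2 1.42.0, no low-count filter, the replicate number as a block, a joint fit of all 9 libraries and each library left out, with 1 omission of SR-717 replicate 1 and PBS replicate 1 chosen after seeing the data. Libraries with the same number deviated together from their group means, with r of 0.65, 0.34 and 0.14 between SR-717 and PBS and 0.30, 0.49 and 0.50 between H-151 and PBS, so the numbers were taken as pairs there, and the labels do not say what they stand for. Between H-151 and PBS 6 of 6 libraries correlated best with their own number, but between SR-717 and PBS only 3 of 6. There SR-717 replicate 3 had r = 0.34 with PBS replicate 2, so the pairing is less well founded. Between SR-717 and H-151 r was 0.34, 0.06 and 0.08. All these r came from the same libraries that the blocked fits tested, so they are no independent ground for the pairing.

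Named genes were the 9, genes of the wider list past the thresholds, Itga2b, Itgb3, Tubb1, Gata1 and Nfe2, the 5 genes most like the mean of the 9, and markers at 0. A further gene of the rule is not reported here. P2ry12, Srgn, Cd9, Itga2, Ebf1, Septin5, Gm49601, Clec9a and wider-list genes named for an alternative fit or for an r over 0.8 were chosen after their values were seen. Promoter sequences came from RefSeq (GRCm38.p6), and protein sequences were not used here. Other experiments of the study were not analysed here.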

Additional observations from a re-analysis of the deposited data

How the results depend on the processing

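No gene of the 9 passed the thresholds with DESeq2 size factors, DESeq2's Wald test, no filter or all 9 libraries in 1 fit. Of all genes 0.426% to 1.48% passed in these fits. With the replicate block 2 passed for SR-717 against PBS, 2 for H-151 against PBS and 1 (Clec1b, lower, log2 fold change -0.99, beside 1.01% of all genes) for SR-717 against H-151. In that last comparison same-numbered libraries had r of 0.34, 0.06 and 0.08, and 2 of 6 libraries correlated best with their own number. Of the wider list, the block called 3 and 6 against PBS, and DESeq2's Wald test and the 9-library fit each called 1 for SR-717 against PBS and 1 for SR-717 against H-151 (P2ry12, and Srgn in the 9-library fit). The block turned Gp5 in SR-717 against PBS to 0.34 and Gp6 in SR-717 against H-151 to -0.34. For SR-717 against H-151, Pf4 turned to 6.5e-04 with DESeq2 size factors, 6.4e-04 with the Wald test and 2.7e-03 in the 9-library fit, and Ppbp to 1.6e-03 in the last. The block changed no other call than those given here and in the report.

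With 1 library left out, 0 to 4 of the 9 genes passed for SR-717 against PBS, 0 to 8 for H-151 against PBS and 0 to 8 for SR-717 against H-151. For the wider list the ranges were 0 to 6, 0 to 13 and 0 to 8. The share of all genes that passed ran from 0.661% to 2.22%, 0.302% to 4.91% and 0.448% to 4.60%. Medians of the 9 ran from -0.82 to 2.78, 0.21 to 2.85 and -1.57 to -0.15.

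The log2 fold changes that turned sign, for SR-717 against PBS, ran from -0.28 to 0.41 (Pf4), -0.55 to 3.11 (Ppbp), -0.84 to 2.06 (Gp1ba), -1.13 to 0.21 (Gp1bb), -0.82 to 3.50 (Gp9), -0.91 to 1.75 (Gp5), -1.10 to 3.34 (Gp6), -0.48 to 2.78 (Clec1b) and -0.68 to 3.21 (Treml1). Among other genes they ran from -0.44 to 1.32 (Itga2b), -0.32 to 0.042 (Itgb3), -1.28 to 2.47 (Tubb1) and -0.89 to 3.33 (Gata1). For H-151 against PBS they ran from -0.28 to 0.41 (Pf4) and -0.0074 to 0.67 (Gp1bb). For SR-717 against H-151 they ran from -0.28 to 0.22 (Pf4), -1.55 to 0.43 (Ppbp), -1.78 to 1.02 (Gp6), -0.084 to 0.28 (Itgb3), -1.74 to 0.027 (Gata1) and -0.37 to 0.63 (Nfe2). Apart from the omitted libraries, the cause of these shifts was not tested.

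Few counts stood behind some genes: Gp6 held 1 to 130 counts, Treml1 2 to 124 and Clec1b 3 to 98 in a library. With SE of 0.32 to 1.43 on the log2 scale, each fitted difference of the 9 genes had a 95% interval that spanned 0.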
